A study of Mus musculus with 4 samples.

Results

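The genes described here are 50 genes that act in or mark the G2 phase and mitosis, taken as a fixed list of symbols and matched to the gene symbols of 4 single-cell libraries. All 50 were found among the 32285 gene IDs of the count tables, and each had 1 ID only. They fall into 6 groups by role, with 11 genes of the cyclin-CDK engine and mitotic kinases, 6 of the spindle checkpoint and the anaphase-promoting complex, 10 of the centromere, kinetochore and chromosomal passenger complex, 12 of spindle assembly, 7 of chromosome structure and the nuclear envelope, and 4 of cytokinesis. The study grew embryoid bodies, aggregates in which embryonic stem cells differentiate into many cell types, from the mouse line R1, and compared them with and without a late period of hypoxia. One library came from 8 days of normoxia, one from 7.33 days of normoxia followed by 16 h of hypoxia, one from 10 days of normoxia, and one from 8 days of normoxia followed by 48 h of hypoxia. All 4 share the line, and both hypoxia libraries have the same total age as the normoxia library they are compared with. Whole embryoid bodies were dissociated and loaded, with no sort named in the labels. The sources used here give neither the oxygen level nor the number of cultures behind a library.

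There is 1 library per group, so no test between groups was possible, no p-value is given, and the treatment, the culture and the library cannot be told apart. Every interval below is at 95% and covers counting error only. A level is the number of unique molecular identifiers (UMIs) of a gene scaled to a fixed library total (CPM), from 3′ reads, and a difference is the log2 ratio of CPM + 1, hypoxia over normoxia unless the ages are compared. The interval of a ratio is that of the plain ratio, without the added 1. After filtering, the 4 libraries held 2670 to 4615 cells and 62221875 to 84709052 UMIs. Median UMIs per cell were 23034 in normoxia and 18838.5 in hypoxia at day 8, and 20306 and 12800 at day 10. The hypoxia day 10 library stood apart in make-up: ribosomal protein genes took 29.4% of its UMIs against 18.4% to 20.7% in the other 3 libraries, mitochondrially encoded genes 1.11% against 2.01% to 4.05%, and the nuclear RNA Malat1 was at 27237 CPM against 9868 to 16092. In these shares the median of the 10598 genes that averaged 5 CPM or more had a log2 ratio of -0.11 at day 8 and -0.46 at day 10, and scaling by edgeR's TMM factors moved those medians up by 0.22 and 0.48. A member with a day 10 ratio above -0.46 is thus above the median gene. The part of library make-up in the members' values was not tested, so counts over all members are set beside the same count over all genes. Counts within a role or another list, at the same 1.5-fold mark, are to be read against 10.0% of all genes lower at day 8 and 44.1% at day 10. For counts of higher genes the shares were 4.59% and 10.4%. Pairs of libraries shared 1 to 5 cell barcodes. The labels call the cells mESC, but a cluster with pluripotency markers held only 16, 15, 3 and 6 of the filtered cells.

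Entry into mitosis is driven by the kinase Cdk1 bound to cyclin A or B, and exit by the anaphase-promoting complex, a ubiquitin ligase that uses the activator Cdc20 and the ubiquitin-conjugating enzyme Ube2c to destroy cyclin B and securin. Between these events Aurora and Polo-like kinases, spindle motors and kinetochore proteins attach and align the chromosomes, and a checkpoint of Bub proteins and Ttk holds the complex back until all are attached. Many of these genes are transcribed late in the cycle through the CHR, a cell cycle genes homology region bound by the MuvB complex with B-Myb and FOXM1 or, in resting cells, with pocket proteins in the DREAM complex. CCAAT boxes bound by NF-Y often lie nearby.

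Both motifs were frequent in the promoters of the members. RefSeq windows of 300 bases, from 250 before to 50 after a transcription start on GRCm38.p6, were matched for 43 of the 50 members, and no window was matched for Ccna2, Cdc25c, Aurkb, Tpx2, Dlgap5, Smc4 and Lmnb1. The letters TTTGAA, the core of the CHR, were present on either strand in 32 of the 43 members (74.4%) and in 20.2% of all 27025 genes with a window. The letters CCAAT, on either strand, were present in 81.4% of members against 41.1% of all genes, and both motifs in 65.1% against 7.97%. At least 2 CCAAT boxes were found in 60.5% of members and 13.3% of all genes. Matches were counted wherever they lay, bases shared between the motifs included. The stretches of 120 bases below show the 2 motifs, in capitals and in either orientation, in core genes of the cycle and in genes at both ends of the day 10 ratios: the kinase gene Cdk1 (chr10:69352913-69353032, minus strand), the cyclin gene Ccnb2 (chr9:70421555-70421674, minus strand), the activator gene Cdc20 (chr4:118437344-118437463, minus strand), the proliferation marker gene Mki67 (chr7:135716380-135716499, minus strand), Cks1b (chr3:89418292-89418411, minus strand) and Psrc1 (chr3:108383684-108383803, plus strand).
Cdk1: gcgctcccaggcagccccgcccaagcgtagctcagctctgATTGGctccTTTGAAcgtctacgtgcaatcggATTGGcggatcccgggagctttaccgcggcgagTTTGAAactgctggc
Ccnb2: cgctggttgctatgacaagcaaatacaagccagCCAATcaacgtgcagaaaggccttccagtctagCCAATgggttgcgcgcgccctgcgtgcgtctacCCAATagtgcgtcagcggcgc
Cdc20: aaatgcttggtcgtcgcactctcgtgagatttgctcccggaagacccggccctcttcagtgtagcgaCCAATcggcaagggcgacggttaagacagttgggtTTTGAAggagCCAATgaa
Mki67: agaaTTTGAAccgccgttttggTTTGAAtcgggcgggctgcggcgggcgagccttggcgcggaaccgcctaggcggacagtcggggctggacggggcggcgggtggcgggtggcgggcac
Cks1b: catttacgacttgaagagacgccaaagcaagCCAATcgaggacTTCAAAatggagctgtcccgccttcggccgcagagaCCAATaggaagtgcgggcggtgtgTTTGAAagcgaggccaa
Psrc1: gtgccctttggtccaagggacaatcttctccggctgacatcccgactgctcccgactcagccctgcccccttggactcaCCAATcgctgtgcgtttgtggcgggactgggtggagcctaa
Cdk1 and Cks1b carry 2 CHR matches each in their stretch, on 1 strand in Cdk1 and on both in Cks1b. Ccnb2 has 3 CCAAT boxes in its stretch, and its CHR matches lie in the window outside it. Cdc20 has a CHR match between its 2 CCAAT boxes. Psrc1 has a CCAAT box and no CHR match in its stretch. At day 10 the 32 genes with a match had a median log2 ratio of -1.35 (-3.17 to 0.23) and the 11 without had -1.52 (-2.13 to 0.31). At day 8 these medians were -0.40 and -0.47. A match is a string of letters in a window and not a measured binding site.

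Members were lower in the hypoxia library at both ages, and far more so at day 10, after 48 h. The hypoxia comparisons differ in age as well as in length of hypoxia, so these cannot be told apart. Summed over members, normoxia day 8 had 5171 CPM (5156 to 5186) and hypoxia day 8 had 3688 (3675 to 3702), while normoxia day 10 had 4023 (4007 to 4038) and hypoxia day 10 had 1927 (1917 to 1937). At day 8, 48 of 50 members had a ratio below 0, and 13 were at least 1.5-fold lower where 10.0% of all genes were, while 0 were 1.5-fold higher where 4.59% of all genes were. The members' median was -0.43, with quartiles of -0.57 and -0.28. With TMM scaling the median was -0.21 and only 3 members stayed 1.5-fold lower, where 4.10% of all genes were. Once the all-gene median was subtracted 5 did, where 6.22% of all genes were. At day 10, 46 of 50 were below 0, and 41 were at least 1.5-fold lower against 44.1% of all genes. None was 1.5-fold higher, against 10.4% of all genes. The median was -1.33, and the range ran from -3.17 for Mki67 to 0.31 for Psrc1. With TMM scaling 32 members were lower and 3 higher by 1.5-fold at day 10, with a median of -0.87, beside 25.3% of all genes lower and 25.5% higher. In bulk sums such as these, fewer cells that express a gene and less RNA of it per cell cannot be told apart. 

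**Figure D1:**
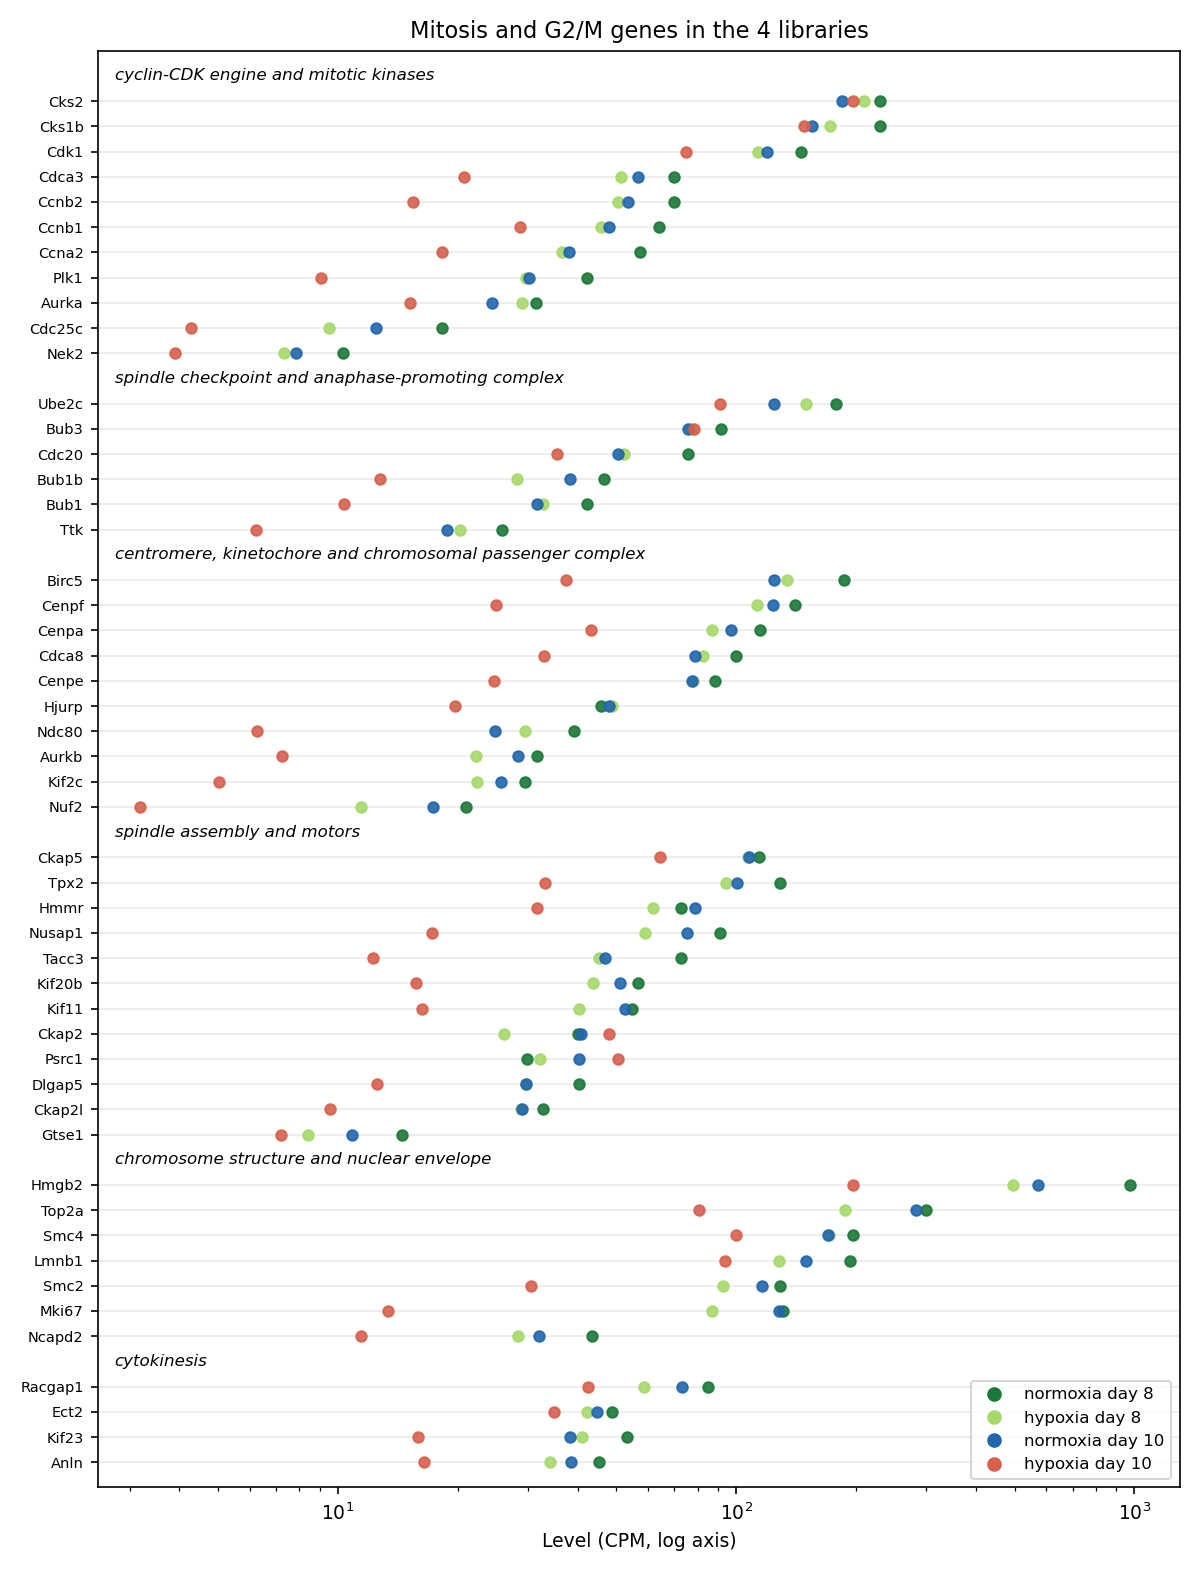
Level of each of the 50 members in each library, in CPM on a log axis, with genes grouped by role and ordered by mean level within a role; each point is 1 library and there are no replicates. In most rows the hypoxia day 10 point lies to the left of the other 3, as for Mki67 (13.3 CPM against 87.0 to 131), while Cks2, Cks1b, Bub3, Ckap2 and Psrc1 do not show that gap.

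In the cyclin-CDK engine day 10 ratios ran from -1.73 for Ccnb2 to 0.09 for Cks2. Cdk1, Ccnb1 and Aurka lay between, at -0.67, -0.72 and -0.65, not far below the all-gene median of -0.46. Cdk1, the mitotic kinase itself (ENSMUSG00000019942; chromosome 10, 69335146 to 69352938, minus strand, mm10), was at 146 CPM in normoxia and 114 in hypoxia at day 8, and 119 and 74.7 at day 10. Its ratio was -0.36 at day 8 and -0.67 at day 10 (interval -0.73 to -0.63), or -0.17 at day 10 with TMM scaling. Ccnb2, which encodes cyclin B2, was at 69.6 CPM in normoxia and 50.6 in hypoxia at day 8, and 53.5 and 15.4 at day 10. At -1.73 it had the lowest day 10 ratio of the role, with hypoxia 3.47-fold below normoxia. Cdca3, which encodes a trigger of mitotic entry, was at 69.7 CPM in normoxia and 51.3 in hypoxia at day 8, and 56.6 and 20.7 at day 10. Cdc25c, the phosphatase that activates Cdk1, was at 18.3 CPM in normoxia and 9.50 in hypoxia at day 8, and 12.5 and 4.27 at day 10. It had the lowest day 8 ratio of the role, -0.88, and at day 10 -1.35. Aurka, encoding the spindle-pole kinase Aurora A, was at 31.5 CPM in normoxia and 28.95 in hypoxia at day 8, and 24.4 and 15.2 at day 10. That is -0.12 at day 8, the ratio nearest 0 of the role, and -0.65 at day 10. Cks2, a small subunit that docks Cdk1 to its substrates, was at 229 CPM in normoxia and 209.5 in hypoxia at day 8, and 185 and 197 at day 10. Its 4 libraries lay close together, with a day 10 ratio of 0.09 (interval 0.05 to 0.12), or 0.59 with TMM scaling. Its paralog Cks1b was at 229.8 CPM in normoxia and 172 in hypoxia at day 8, and 155 and 148 at day 10. The day 10 ratio of Cks1b was -0.07, and it changed side to 0.43 with TMM scaling. In the role as a whole 2 of 11 genes were 1.5-fold lower at day 8 and 9 at day 10, with medians of -0.44 and -0.85.

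The genes of the spindle checkpoint and the anaphase-promoting complex divided at day 10 into checkpoint kinases that were low and the rest. Bub1, a checkpoint kinase of the kinetochore, was at 42.2 CPM in normoxia and 32.7 in hypoxia at day 8, and 31.5 and 10.3 at day 10. Bub1b, which encodes the checkpoint protein BubR1, was at 46.5 CPM in normoxia and 28.2 in hypoxia at day 8, and 38.3 and 12.8 at day 10. Both had their lowest level in hypoxia day 10, with ratios of -1.52 and -1.51. Bub1b was also 1.5-fold lower at day 8, with the lowest ratio of the role there, -0.70. Bub3, their partner, was at 91.9 CPM in normoxia and 77.2 in hypoxia at day 8, and 75.6 and 78.4 at day 10. Its 2 day 10 libraries differed by 0.05, or by 0.55 with TMM scaling. Bub3 shares 11674 bases with Fgfr2 on the opposite strand, and the sources used here do not say whether counting used the strand. Ube2c was at 178 CPM in normoxia and 149.8 in hypoxia at day 8, and 125 and 91.1 at day 10. Cdc20 was at 75.5 CPM in normoxia and 52.2 in hypoxia at day 8, and 50.4 and 35.4 at day 10. These 2 genes of mitotic exit were at -0.45 and -0.50 at day 10, under the 1.5-fold mark, and at 0.05 and -0.01 with TMM scaling. Of the 6 genes 1 was 1.5-fold lower at day 8 and 3 at day 10, counts near the share over all genes, with medians of -0.35 and -0.98.

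All 10 centromere and kinetochore genes were at least 1.5-fold lower in hypoxia at day 10, where the median was -1.77. At day 8 only Nuf2 was, and the median was -0.39. Cenpf, a large kinetochore protein that builds up in G2 (ENSMUSG00000026605; chromosome 1, 189640606 to 189688086, minus strand), was at 140.2 CPM in normoxia and 113 in hypoxia at day 8, and 124 and 24.9 at day 10. Its first 3 libraries were within a narrow band and the hypoxia day 10 library was 4.96-fold below normoxia (-2.27, interval -2.38 to -2.24). Birc5, which encodes survivin of the chromosomal passenger complex, was at 187 CPM in normoxia and 135 in hypoxia at day 8, and 124 and 37.4 at day 10. Cdca8, which encodes borealin of the same complex, was at 100.1 CPM in normoxia and 82.6 in hypoxia at day 8, and 78.9 and 32.97 at day 10. Both shared the order in which hypoxia day 10 is lowest and normoxia day 8 highest, with day 10 ratios of -1.71 and -1.23. Cenpa, the histone H3 variant that marks centromeres, was at 115 CPM in normoxia and 86.8 in hypoxia at day 8, and 97.01 and 43.1 at day 10, and its ratio of -1.15 at day 10 was nearest 0 in the role. Nuf2 and Ndc80 are subunits of the complex that binds microtubules at the kinetochore. Nuf2 was at 20.9 CPM in normoxia and 11.4 in hypoxia at day 8, and 17.3 and 3.18 at day 10. Ndc80 was at 39.1 CPM in normoxia and 29.4 in hypoxia at day 8, and 24.8 and 6.28 at day 10. Both were lowest in hypoxia day 10, at -2.13 and -1.83, and Nuf2 also had one of the 3 lowest day 8 ratios of all members, -0.82. Kif2c, a microtubule-depolymerising kinesin of the centromere, was at 29.5 CPM in normoxia and 22.4 in hypoxia at day 8, and 25.7 and 5.01 at day 10, a day 10 ratio of -2.15. Hjurp, the chaperone that places Cenpa, was at 45.7 CPM in normoxia and 48.8 in hypoxia at day 8, and 47.9 and 19.7 at day 10. It was the one gene of the role above 0 at day 8 (0.09, interval 0.03 to 0.16), and it was at -1.24 at day 10.

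Spindle genes held both strong decreases and the 2 members with the highest day 10 ratios. Tpx2, which activates Aurora A on the spindle, was at 129 CPM in normoxia and 94.5 in hypoxia at day 8, and 101 and 33.1 at day 10. Nusap1, a microtubule-bundling protein, was at 91.3 CPM in normoxia and 59.1 in hypoxia at day 8, and 75.5 and 17.2 at day 10. Tacc3, a partner of Aurora A and Ckap5, was at 72.8 CPM in normoxia and 45.1 in hypoxia at day 8, and 46.8 and 12.3 at day 10. All 3 had their lowest value in hypoxia day 10, at -1.58, -2.07 and -1.85. Hmmr, a spindle-pole protein, was at 72.7 CPM in normoxia and 61.8 in hypoxia at day 8, and 78.9 and 31.5 at day 10. Ckap5, a microtubule polymerase that cells also use outside mitosis, was at 114 CPM in normoxia and 107 in hypoxia at day 8, and 107 and 64.3 at day 10, with -0.09 at day 8 and -0.73 at day 10. Gtse1, a regulator of spindle microtubules, was at 14.5 CPM in normoxia and 8.43 in hypoxia at day 8, and 10.8 and 7.18 at day 10. Its day 8 ratio, -0.72, was the lowest of the role, and its day 10 ratio was -0.53. Ckap2, which stabilises spindle microtubules (ENSMUSG00000037725; chromosome 8, 22168160 to 22185819, minus strand), was at 40.01 CPM in normoxia and 26.1 in hypoxia at day 8, and 40.7 and 47.9 at day 10. Hypoxia was the lower library at day 8 (-0.60, interval -0.70 to -0.54) and the higher at day 10 (0.23, interval 0.16 to 0.31). Psrc1, which binds microtubules of the central spindle (ENSMUSG00000068744; chromosome 3, 108383839 to 108388231, plus strand), was at 29.8 CPM in normoxia and 32.2 in hypoxia at day 8, and 40.3 and 50.4 at day 10. Hypoxia was the higher library at both ages, at 0.11 and 0.31. With TMM scaling Ckap2 was at 0.72 and Psrc1 at 0.81 at day 10. Of the 12 genes 4 were 1.5-fold lower at day 8 and 9 at day 10, with medians of -0.43 and -1.40.

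The role with the largest share of lower genes at day 8 was chromosome structure, with 5 of 7 genes and a median of -0.59, and all 7 were lower at day 10 (-1.54). Mki67, whose protein Ki-67 coats mitotic chromosomes (ENSMUSG00000031004; chromosome 7, 135689784 to 135716361, minus strand), was at 131 CPM in normoxia and 86.96 in hypoxia at day 8, and 128 and 13.3 at day 10. Both normoxia libraries were alike and hypoxia day 10 was 9.61-fold below its control (-3.17, interval -3.36 to -3.17), the lowest ratio of all members. Top2a, the topoisomerase that untangles sister chromatids, was at 299 CPM in normoxia and 188 in hypoxia at day 8, and 283 and 80.5 at day 10. Hmgb2, a chromatin protein of dividing cells, was at 973 CPM in normoxia and 495 in hypoxia at day 8, and 571 and 196 at day 10. It was the lowest member at day 8 (-0.97, interval -0.99 to -0.96), and at day 10 it and Top2a were at -1.54 and -1.80. Smc4, a core subunit of condensin, was at 196 CPM in normoxia and 171 in hypoxia at day 8, and 170.4 and 100.01 at day 10. Lmnb1, encoding the nuclear lamina protein lamin B1, was at 194 CPM in normoxia and 128 in hypoxia at day 8, and 149 and 93.9 at day 10. Smc4 had the ratio nearest 0 of the role at day 8, -0.19, and Lmnb1 at day 10, -0.66.

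Of the 4 cytokinesis genes 0 were 1.5-fold lower at day 8 and 3 were at day 10, with medians of -0.38 and -0.97. Racgap1 and Kif23 form the centralspindlin complex. Racgap1 was at 85.1 CPM in normoxia and 58.8 in hypoxia at day 8, and 73.3 and 42.6 at day 10. Kif23 was at 53.2 CPM in normoxia and 41.1 in hypoxia at day 8, and 38.2 and 15.9 at day 10. The 2 partners differed in size of change at day 10, -0.77 against -1.22. Anln, which encodes the actin-binding scaffold anillin, was at 45.2 CPM in normoxia and 34.1 in hypoxia at day 8, and 38.4 and 16.5 at day 10, and its day 10 ratio was -1.17. Ect2, the exchange factor that activates RhoA at the division plane, was at 48.7 CPM in normoxia and 42.1 in hypoxia at day 8, and 44.8 and 34.9 at day 10. Its 4 values lay close together, and its day 10 ratio of -0.35 was nearest 0 in the role, or 0.14 with TMM scaling. Of the 13 members not given here library by library, day 10 ratios ran from -1.89 (Smc2) to -0.72 (Ccnb1), all lower by at least 1.5-fold.

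**Figure D2:**
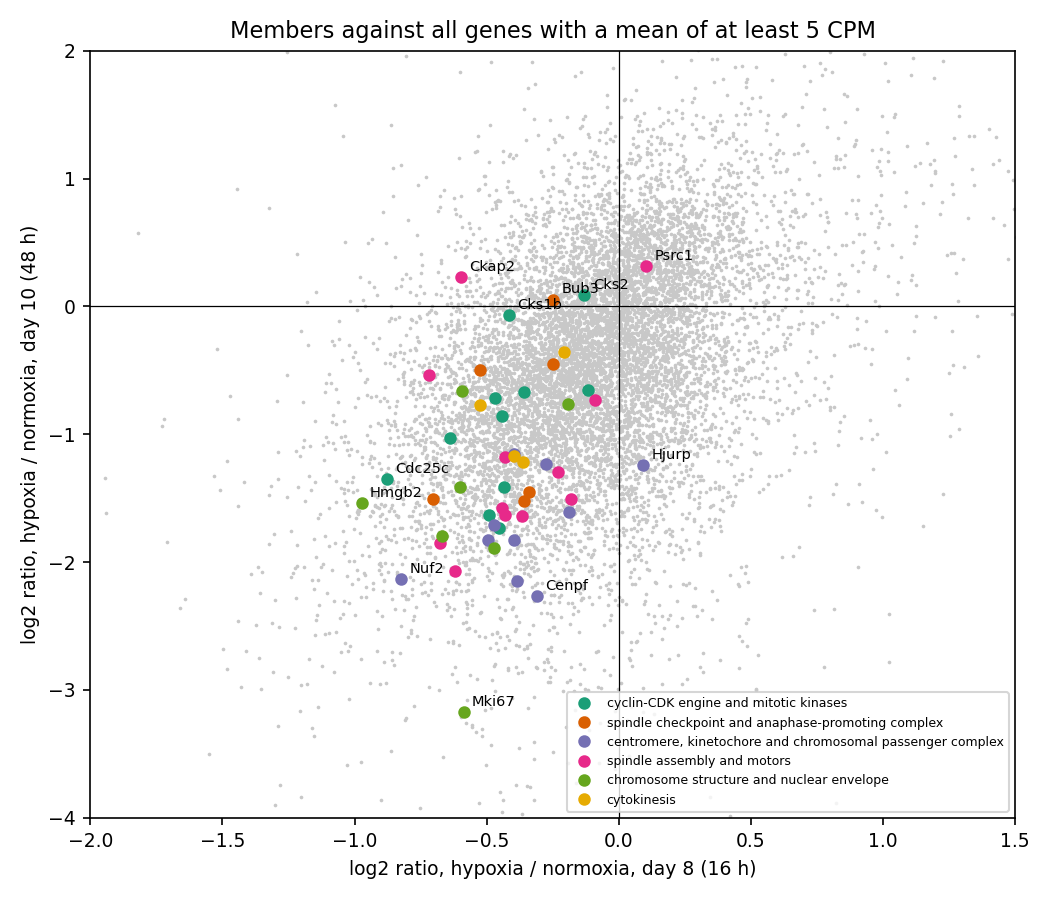
Log2 ratio of CPM + 1, hypoxia over normoxia, at day 8 (horizontal) and day 10 (vertical) for the 50 members, coloured by role, over all genes averaging 5 CPM or more in grey; a few grey points lie beyond the axes. All but 2 members sit to the left of 0 and most sit well below 0, with Mki67 lowest at day 10 (-3.17) and Psrc1, Ckap2, Cks2 and Bub3 above 0.

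Between the normoxia libraries 46 of 50 members had a ratio below 0 at day 10 against day 8, and the members' sum was 4023 CPM against 5171. Few of the differences were large: 3 of 50 were 1.5-fold lower where 8.22% of all genes were, and 0 were higher where 7.94% of all genes were. The count past 1.5-fold is near the background share. The median was -0.29. The 3 were Hmgb2 (-0.77), Ndc80 (-0.64) and Tacc3 (-0.63), and Psrc1 was highest (0.42). Both age and the day 10 hypoxia comparison use the normoxia day 10 library, so they are not independent.

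In the lists of further mitosis genes and of DNA replication most genes were 1.5-fold lower in hypoxia at day 10, where 44.1% of all genes were. Of 50 further mitosis genes 23 were 1.5-fold lower at day 8 and 43 at day 10, with medians of -0.53 and -1.50 and 0 higher at either age. The lowest of these at day 10 were Pbk (-2.76), Cenpm (-2.75) and Knl1 (-2.69). The highest were Cdc27 (0.47), a subunit of the anaphase-promoting complex, Wee1 (0.26), the kinase that restrains Cdk1, and Zwint (-0.08). Genes of DNA replication were lower by more than the members: 28 of 34 at day 8 and 32 at day 10, with medians of -0.91 and -2.03 and 0 higher. Rrm2, a subunit of ribonucleotide reductase, was at 56.3 CPM in normoxia and 18.5 in hypoxia at day 8, and 40.6 and 2.67 at day 10. Tk1, a thymidine kinase, was at -3.28 at day 10 and Pola1, a replicative polymerase, at -2.95. The highest were Rrm1 (-0.62), Ung (-0.28) and Cdt1 (0.21), a licensing factor of G1, and of these Ung and Cdt1 were not 1.5-fold lower.

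Among 21 regulators of these promoters 6 were 1.5-fold lower at day 8 and 9 at day 10, with 0 and 1 higher and medians of -0.43 and -0.53, and the day 10 count is near the share over all genes. Foxm1, the activator that joins MuvB in G2, was at 11.4 CPM in normoxia and 7.02 in hypoxia at day 8, and 7.91 and 2.44 at day 10. Mybl2, which encodes B-Myb, was at 14.2 CPM in normoxia and 7.79 in hypoxia at day 8, and 8.87 and 2.17 at day 10. Both were lowest in the hypoxia day 10 library, with ratios of -1.37 and -1.64. The pocket protein gene Rbl1 was at 19.8 CPM in normoxia and 8.42 in hypoxia at day 8, and 18.3 and 3.37 at day 10, and E2f1 was at -1.66 at day 10. The retinoblastoma gene Rb1 was at 19.97 CPM in normoxia and 28.7 in hypoxia at day 8, and 24.4 and 33.5 at day 10. Its level was higher in hypoxia at both ages (0.50 and 0.44), as was that of the MuvB subunit gene Lin37 (0.43 and 0.39). Lin54, the MuvB subunit that touches the CHR, was at 16.5 CPM in normoxia and 13.98 in hypoxia at day 8, and 15.6 and 28.3 at day 10, a day 10 ratio of 0.81.

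The 7 genes of CDK inhibitors went the other way in part. At day 8, 2 were higher and 0 lower by 1.5-fold, where 4.59% and 10.0% of all genes were. At day 10, 3 were higher and 2 lower, where 10.4% and 44.1% of all genes were. Cdkn1a, which encodes p21, was at 96.2 CPM in normoxia and 131 in hypoxia at day 8, and 155 and 253 at day 10. Cdkn2b, which encodes p15, was at 27.6 CPM in normoxia and 46.2 in hypoxia at day 8, and 29.97 and 104 at day 10. Both were highest in hypoxia day 10, at 0.71 and 1.76, and so was Cdkn2d at 1.32. Cdkn1b, which encodes p27, was at 46.4 CPM in normoxia and 83.6 in hypoxia at day 8, and 48.2 and 57.9 at day 10, with its larger ratio at day 8 (0.83). Cdkn1c, which encodes p57, was lower in hypoxia at both ages (-0.30 and -0.76), and Cdkn2a was at -0.13 at day 10. The other gene lower by 1.5-fold at day 10 was Cdkn2c (-1.51), at 2.40 CPM in normoxia and 1.29 in hypoxia at day 8, and 4.10 and 0.794 at day 10, too low for the naming rule and named after its values were seen. Of 11 genes of G1 cyclins, their kinases and Myc, 3 were lower at day 8 and 5 at day 10, with 0 and 1 higher, again near the share over all genes at day 10. Ccnd1, cyclin D1, was at 22.6 CPM in normoxia and 12.8 in hypoxia at day 8, and 29.8 and 5.04 at day 10, and Ccne1, cyclin E1, had ratios of -1.17 and -1.09. Cdk4 was at -0.89 at day 10, while Ccnd2 (-0.06) and Ccnd3 (-0.09) stayed near 0. Myc was at 9.18 CPM in normoxia and 6.16 in hypoxia at day 8, and 6.69 and 14.6 at day 10, lower in hypoxia at day 8 (-0.51) and higher at day 10 (1.02).

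Cells were thinned to 5000 UMIs each, to give the share that held several mitotic transcripts and the level of other members in them. A cell was placed in a mitotic range if it held a UMI of at least 3 of 10 members: Top2a, Cdk1, Ccna2, Birc5, Cenpf, Tpx2, Nusap1, Kif11, Cdca8 and Cenpe. The other 40 members were held out of this choice. The range is a span of a score and not a cell type. It cannot tell fewer dividing cells from less RNA per cell, since a cell with less RNA of these genes can fall out of it. It held 39.4% (1220 of 3093 cells, Clopper-Pearson 37.7 to 41.2) in normoxia and 27.6% (878 of 3178, 26.1 to 29.2) in hypoxia at day 8. At day 10 it held 25.6% (643 of 2508, 23.9 to 27.4) in normoxia and 9.83% (393 of 3996, 8.93 to 10.8) in hypoxia. The share was lower in the hypoxia library at both ages. These intervals count the cells of 1 library each and say nothing of the spread between cultures. Without thinning the shares were 55.5%, 39.0%, 34.7% and 17.9% in the same order. Just inside the range, at exactly 3 genes, lay 169, 130, 88 and 72 cells, and just outside, at 2 genes, 240, 198, 141 and 206. Thinning left out 70, 166, 162 and 619 shallower cells. As a rough measure of free hemoglobin RNA, a UMI of hemoglobin genes was seen in 26.5%, 23.3%, 1.96% and 1.02% of thinned cells outside the small named classes, cells that should not make it. The libraries held 109, 151, 11 and 12 erythroid-like cells in the same order. These shares thus do not compare the free RNA of other genes between the ages. The part of free RNA in the range was not tested.

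**Figure D3:**
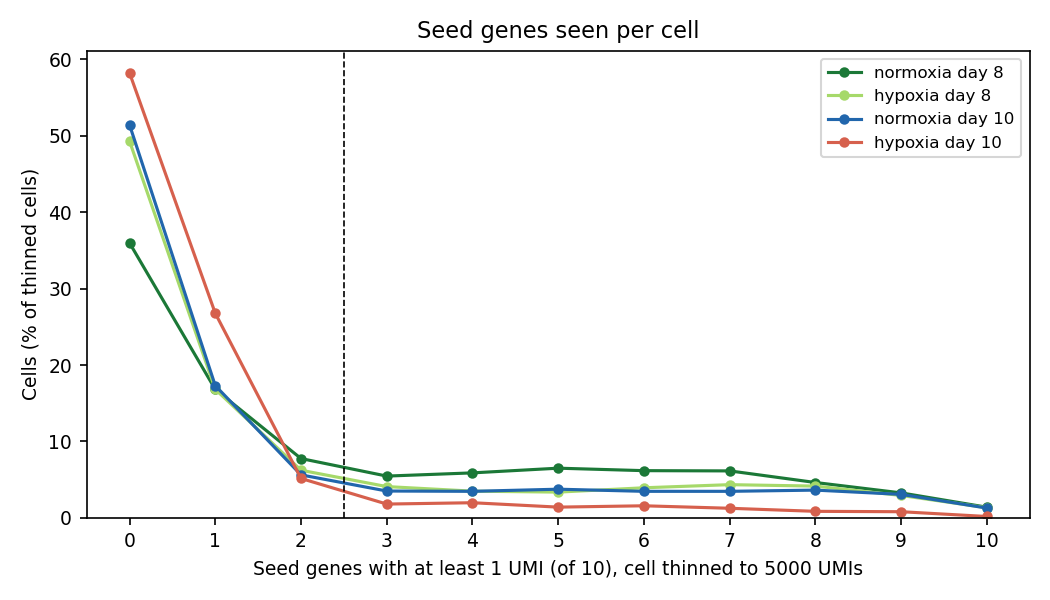
Percent of thinned cells of each library by the number of the 10 seed genes with at least 1 UMI, each cell thinned to 5000 UMIs; the dashed line marks the lower edge of the range. The hypoxia day 10 line is highest at 0 and 1 seed genes and lowest from 3 on, and the normoxia day 8 line is the reverse, with 36.0% of its cells at 0 against 58.2%.

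Inside the range the held-out members differed by less than in the sums over whole libraries. Their sum was 6861 CPM (6795 to 6927) and 6667 (6591 to 6744) at day 8, and 7459 (7365 to 7554) and 6002 (5894 to 6111) at day 10. Outside the range it was 1280 and 872 at day 8, and 857 and 958 at day 10. At day 8 the median log2 ratio of the 40 genes was 0.14 inside the range, against -0.36 over all thinned cells. Inside it 3 were 1.5-fold lower where 6.91% of other genes were, and 0 were higher where 5.96% were. Outside it the median was -0.49, with 17 lower and 1 higher, against 7.89% and 4.79% of other genes. At day 10 the median was -0.32 inside, against -1.26 over all thinned cells, and -0.31 over the 6530 other genes inside. Inside, 13 were lower where 37.1% of other genes were, and 3 higher where 15.4% were, so the count of lower genes was near the background share. Outside, 8 were lower and 8 higher, where 38.5% and 12.8% of other genes were, with a median of -0.19. Many members were at a few CPM or less outside the range, where the added 1 CPM shrinks a ratio. Kif2c, at 1.07 in normoxia and 0.444 in hypoxia at day 10, read -0.52. The other genes averaged at least 20 CPM over whole libraries and were not matched to the members in level. The share of held-out UMIs that came from cells inside the range was 74.5% to 77.7% in the first 3 libraries and 40.6% in hypoxia day 10. Since the range was cut on 10 members, cells are in it because those genes were seen there. Cells with little RNA of the members fall outside it, so the smaller difference inside does not separate cell number from RNA per cell. A second choice of seeds is given below.

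A few held-out genes stood far from the others inside the range at day 10, in both directions. Mki67 was at 265 CPM in normoxia and 247 in hypoxia at day 8, and at 374 and 85.5 at day 10. Within cells that hold other mitotic transcripts, the hypoxia day 10 library had the lowest Mki67 of the 4, at -2.11 (interval -2.37 to -1.89). Smc2, the partner of Smc4 in condensin, was at 304 and 125 at day 10 (-1.27). Hmgb2 was at 1462 and 699 (-1.06), and Nuf2 at 50.7 and 17.3 (-1.50). Other held-out genes were higher. Ckap2 was at 102 in normoxia and 185 in hypoxia at day 10 (0.85, interval 0.64 to 1.08). Ube2c was at 337 and 556 (0.72, interval 0.60 to 0.84). Bub3 was at 129 and 208 (0.69). These 3 were the ones 1.5-fold higher, and Ect2 (0.55) and Ccnb1 (0.50) were next. The 2 B-type cyclins lay on opposite sides inside the range, since Ccnb2 was at 156 and 84.99 (-0.87) and Ccnb1 at 139 and 198.

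Outside the range some members were higher in the hypoxia library at day 10. Cks2 was at 64.9 and 67.8 CPM outside the range at day 8, and at 53.4 in normoxia and 169 in hypoxia at day 10. Inside it was at 505 and 557 at day 10, so the larger ratio lay outside (1.65, interval 1.53 to 1.80, against 0.14 inside). Ckap2 was at 7.18 and 26.5 outside (1.75). Ect2 was at 4.61 and 11.2 (1.12), and Cdc20 at 6.22 and 13.04 (0.96). The other 4 that were 1.5-fold higher outside the range were Bub1b (0.80), Aurka (0.66), Anln (0.65) and Psrc1. The first 3 were at low levels there: Bub1b at 2.47 and 5.05, Aurka at 1.29 and 2.61, and Anln at 3.54 and 6.11. The interval of Aurka ran from 0.08 to 2.07. Cells outside the range include the 206 of hypoxia day 10 with 2 seed genes. Psrc1 was at 25.8 and 39.6 (0.60), and Cks1b, under the 1.5-fold mark, at 95.01 and 141 (0.56). For Ccnb2 outside the range the order was opposite, at 16.7 and 3.997 (-1.83).

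**Figure D4:**
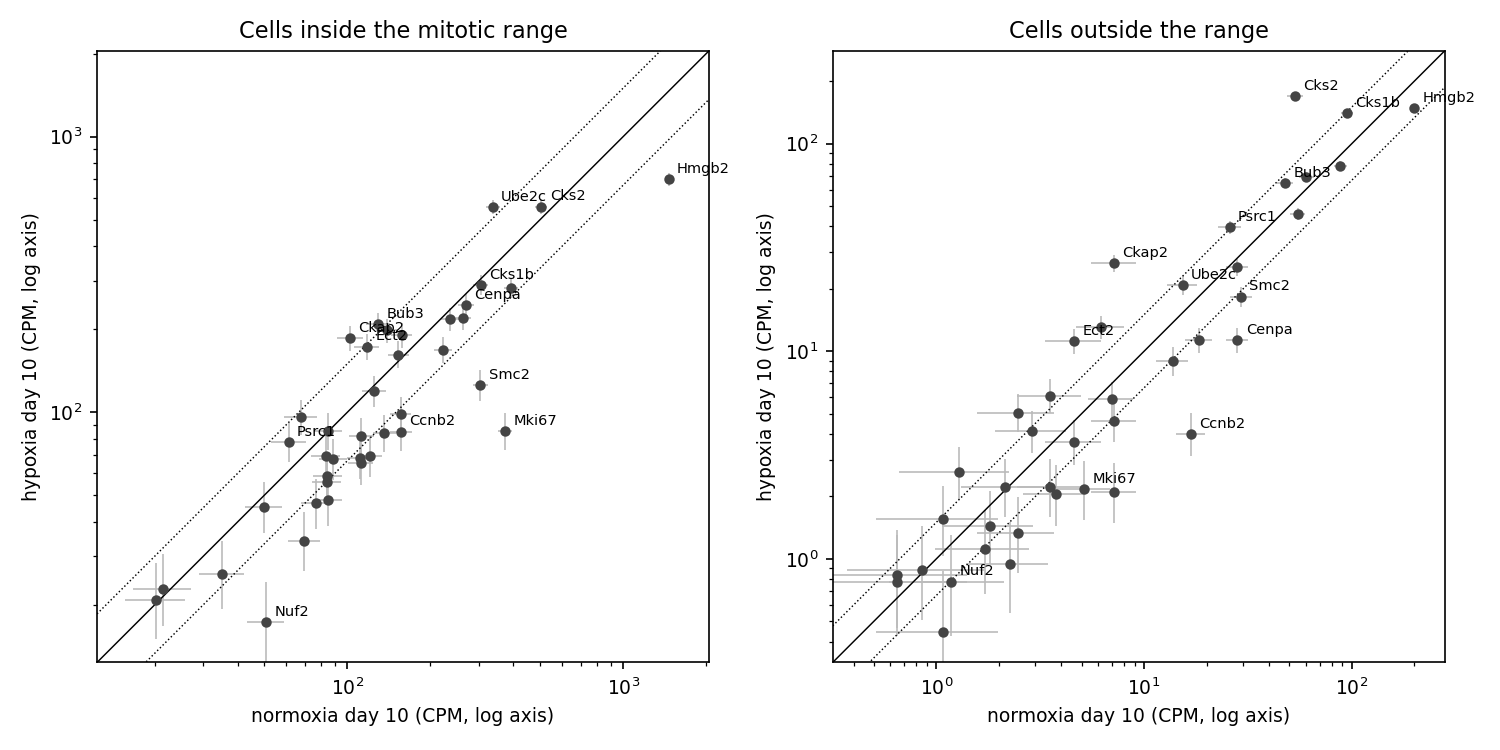
Level of each of the 40 held-out members in normoxia day 10 (horizontal) and hypoxia day 10 (vertical), in CPM on log axes, in thinned cells inside (left) and outside (right) the mitotic range; bars are exact Poisson intervals, the solid line is equality and the dotted lines are 1.5-fold. Inside, most genes lie near the line with Mki67 (374 and 85.5) far below it and Ube2c and Ckap2 above; outside, Cks2 and Ckap2 lie above it and Ccnb2 below.

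A range cut on 10 other members, Mki67, Ccnb1, Ccnb2, Cdc20, Aurka, Plk1, Hmmr, Cdca3, Ckap2l and Kif23, held 29.3%, 20.9%, 20.2% and 6.86% of thinned cells in the same order. Inside that range Ube2c was at 404 and 715 CPM in normoxia and hypoxia at day 10 (0.82), Ckap2 at 122 and 215 (0.82) and Bub3 at 144 and 250.4 (0.80). Smc2 was at 317 and 141 (-1.17), Nuf2 at 56.1 and 21.9 (-1.32) and Hmgb2 at 1568 and 804 (-0.96). Each of these 6 genes lay on the same side as with the first list. They had been picked for their values inside the first range, in the same libraries, so this is not an independent check. Cenpf, a seed of the first list, could be read here, and it was at 429 and 208 (-1.04).

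Cells were also grouped by clusters made without the members, other cell-cycle genes, or genes of hypoxia and stress. Small classes named from their markers were endoderm-like, macrophage-like, erythroid-like, megakaryocyte-like, cardiomyocyte-like, endothelial-like and pluripotent-like cells. All others except 2 clusters of low depth are the remaining cells, of mesenchymal, epicardial or unnamed kind, and these fall into clusters that were mostly of 1 library: 4 clusters (1141, 1057, 1034 and 667 cells) held 1133, 1038, 1029 and 662 cells of hypoxia day 10. In the remaining cells 12 members were 1.5-fold lower at day 8 (7.38% of genes with at least 20 CPM; median -0.44) and 41 at day 10 (35.5%; median -1.37). With age 6 were lower there (7.19%). Different clusters make up this class in each library, so these values compare mixtures. In every class such a share is over genes averaging at least 20 CPM in it, while members were counted at any level. Members and other genes were thus not matched in level within a class.

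In endoderm-like cells the members lay near 0 at day 8. In 199 normoxia and 143 hypoxia cells 0 members were 1.5-fold lower where 7.84% of genes were, 1 was higher (Psrc1, 0.82), and the median was -0.02. The share in the mitotic range was 31.5% (25.1 to 38.5) of 197 thinned cells and 34.3% (26.5 to 42.7) of 143. At day 10 it was 41.7% (27.6 to 56.8) of 48 and 36.7% (19.9 to 56.1) of 30, too few cells to show any but a large difference. The members' sum in endoderm-like cells was 4647 CPM in normoxia and 4303 in hypoxia at day 8, and 5653 and 2334 at day 10. The day 10 sums rest on 50 and 40 cells, with medians of 21809 and 9528.5 UMIs, and members were not compared one by one there. With age in normoxia 0 members were lower (9.22% of genes) and 11 higher (8.19%) in endoderm-like cells, with a median of 0.28. The remaining cells differed at both ages, from 40.1% to 27.3% at day 8 and from 25.1% to 9.63% at day 10. The difference between classes in this response was not tested, since each class had 1 library per group.

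In macrophage-like cells the share in the range at day 8 was 72.5% (58.3 to 84.1) of 51 cells in normoxia and 65.8% (48.6 to 80.4) of 38 in hypoxia. At day 10 the share was 30.8% (23.7 to 38.6) of 159 and 13.9% (7.79 to 22.2) of 101. In them 23 members were 1.5-fold lower in hypoxia at day 10 where 27.2% of genes were (median -0.51, lowest Tacc3 at -1.59), and 32 were lower with age where 23.3% of genes were (median -0.63). In erythroid-like cells 27 members were lower at day 8 where 20.7% of genes with at least 20 CPM were, with a median of -0.67. These cells held only 5254 UMIs of the members in normoxia and 3962 in hypoxia at day 8. Their share in the range was 18.9% (11.4 to 28.5) of 90 and 19.5% (12.8 to 27.8) of 118. Pluripotent-like cells had 12 of 16 cells and 7 of 15 in the range at day 8, with intervals of 47.6 to 92.7 and 21.3 to 73.4. Megakaryocyte-like cells had 9 of 34 and 3 of 29 in the range at day 8, and endothelial-like cells 4 of 11 and 5 of 18. Cardiomyocyte-like cells had 13.6% of 22 in normoxia (3 cells, 2.91 to 34.9) and 0 of 11 in hypoxia at day 8. At day 10 they had 0 of 2 in normoxia and 0 of 32 in hypoxia. For those 32 cells the floor of 3 counts is a share of 9.38% (Clopper-Pearson upper bound 10.9%). The members' sum in this class was 1519 CPM in normoxia and 772 in hypoxia at day 8, and 765 and 1094 at day 10.

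**Figure D5:**
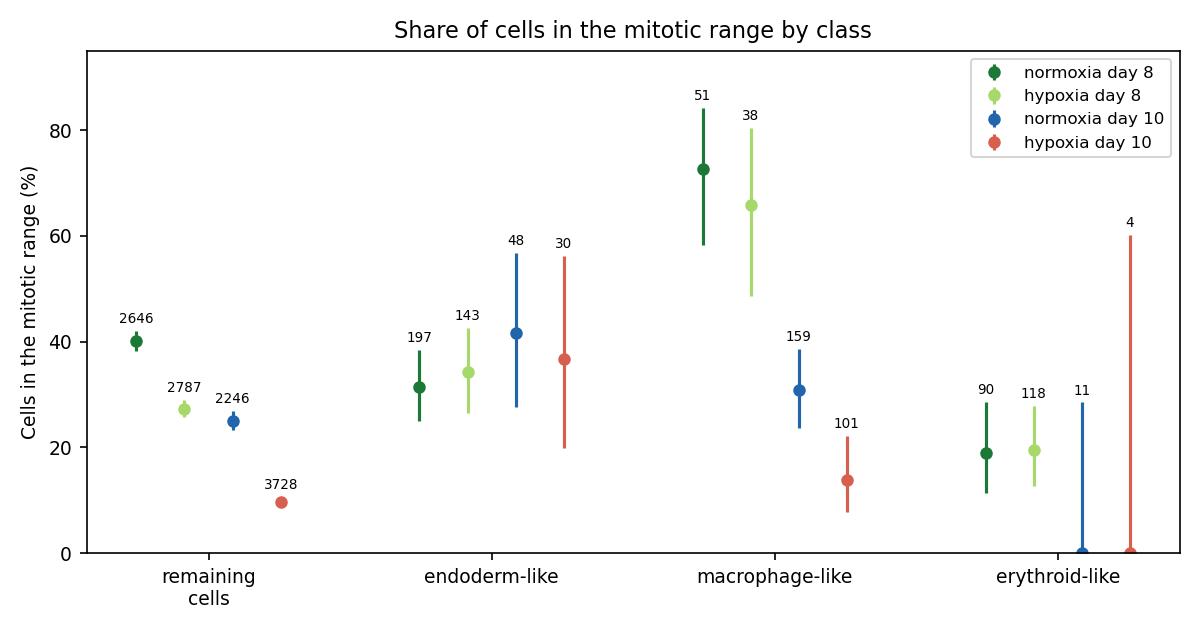
Percent of thinned cells in the mitotic range, by class and library; bars are exact Clopper-Pearson intervals for counting error and the number over each bar is the number of thinned cells. The remaining cells step down from 40.1% to 9.63%, endoderm-like cells lie between 31.5% and 41.7% with wide bars at day 10, and macrophage-like cells are lower at day 10 than at day 8.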

How the data were processed

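Single cells of whole embryoid bodies were profiled with the 10x Genomics 3′ v3.1 chemistry, per the labels' protocols, in 4 libraries of 1 group each. The deposited values are raw UMI counts for each gene in each cell, checked to be whole numbers. Cell Ranger 7.1.0 and mm10 are named in the submitters' processing notes. The sources used here do not say if introns were counted. The 50 members, their roles and the other gene lists were chosen with earlier results of these data known.

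Kept barcodes had 500 genes or more and 15% or less of their UMIs from mitochondrial genes, and cells called doublets by Scrublet (scanpy 1.11.5) were removed. It called 5, 1, 9 and 1 cells (0.158%, 0.0299%, 0.336% and 0.0217%), under 0.5% in each library, so doublets were in effect not removed. Library sums in CPM were compared on the scale log2(CPM + 1) (Python 3.11.15, numpy 2.4.6, pandas 2.3.3). Intervals are exact Poisson for a level, conditional binomial for a ratio without the pseudocount, and Clopper-Pearson for a share (scipy 1.17.1). Depth is the total of UMIs per library given in the report. UMIs count molecules, but intervals and the floor of 3 counts leave out differences between cultures. The ratio script was tested on simulated data.

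For shares of cells, each cell was thinned at random to 5000 UMIs. The other genes inside and outside the range needed a mean of at least 20 CPM. Cells were clustered on 2000 variable genes, 30 principal components and 15 neighbours with Leiden at resolution 1 (leidenalg 0.10.2, igraph 0.11.9), and a cluster was named only with at least 3 markers. TMM factors came from edgeR 4.0.16 (R 4.3.3) and were used for scaling only, since 1 library per group allows no count model. Coordinates are 1-based GENCODE M21 (mm10), and promoters are RefSeq (GRCm38.p6). Values by library are given for the 4 members of highest mean level in each role, the highest and lowest ratio of each role in each hypoxia comparison, and the 3 highest and lowest of all members. In the other lists, the 3 highest and lowest day 10 ratios are named among genes that averaged 5 CPM or more, with Foxm1, Mybl2, Cdkn1a, Cdkn1b, Cdkn1c, Ccnd1, Ccne1 and Myc whatever their values. Another 18 settings were tried, and 3 more that were chosen after seeing the data.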

Additional observations from a re-analysis of the deposited data

Results flagged for a closer look

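In CPM the hypoxia and normoxia libraries lay in opposite order at the 2 ages in 4 members. The difference between ages was not tested, since each group has 1 library. Cks2 had a hypoxia ratio of -0.13 at day 8 and 0.09 at day 10, a difference of 0.22 on the log2 scale. With TMM scaling both its ratios were above 0 (0.10 and 0.59). Ckap2 went from -0.60 to 0.23, a difference of 0.83, and kept opposite signs with TMM scaling (-0.38 and 0.72). Hjurp went from 0.09 to -1.24, a difference of -1.33, also with opposite signs under TMM scaling (0.32 and -0.76). Bub3 lay in opposite order too, though its day 10 interval included 0, at -0.25 and 0.05. Which members do so depends on the scaling. With TMM scaling further members had opposite signs, among them Cks1b (-0.19 and 0.43), Cenpe (0.04 and -1.12) and Ckap5 (0.14 and -0.24).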

How the results depend on the processing

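None of the alternatives run turned the direction of the members' median in the 3 comparisons of libraries. No paired analysis was possible because each group has 1 library. Of 159 values recomputed under the alternatives, 111 stayed within the margin and 48 moved beyond it. The margin was 1.5 times for a count, the Clopper-Pearson interval for a share, and for a median the interval of its order statistics over genes, a yardstick only. With TMM scaling the members' median was -0.21 at day 8, -0.87 at day 10 and -0.17 with age, with 3 members 1.5-fold lower at day 8, 3 higher at day 10 and 1 lower with age. Of all genes 4.10%, 25.5% and 5.30% were past the mark in the same order. Centred on the median of all genes, the members' medians were -0.31, -0.86 and -0.21, with 5 lower at day 8, 2 higher at day 10 and 1 lower with age. The shares of all genes were then 6.22%, 24.8% and 6.03%. As UMIs per cell, with no scaling by depth, the members' medians were -0.62, -1.75 and -0.49, with 30 lower at day 8 and 16 with age. On that scale 22.4% of all genes were lower at day 8 and 18.1% with age. The all-gene medians were -0.31 at day 8, -0.92 at day 10 and -0.28 with age. A pseudocount of 10 CPM gave medians of -0.36 at day 8 and -0.98 at day 10, with 3 lower at day 8 and 1 with age, and a pseudocount of 0.1 gave 5 lower with age. A fold of 2 left 0 lower at day 8 and 0 with age. Thinned cells gave a median of -0.36 at day 8 and 6 lower with age. A denominator without ribosomal, mitochondrial and Malat1 UMIs gave 1 with age, where 6.84% of all genes were. The share over all genes was not computed for a changed pseudocount or fold, or for thinned cells. The remaining cells alone, an alternative chosen after seeing the data, gave 6 lower with age.

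The share of cells in the mitotic range moved with the cut, while the order of the 4 libraries did not. In the order normoxia and hypoxia day 8, then day 10, it was 47.2%, 33.9%, 31.3% and 14.99% with at least 2 seed genes, and 28.1%, 20.04%, 18.7% and 6.06% with at least 5. Thinned to 3000 UMIs it was 32.4%, 21.9%, 21.2% and 7.68%, and to 8000 UMIs 44.7%, 31.7%, 28.4% and 13.8%. The second seed list gave 29.3%, 20.9%, 20.2% and 6.86%. Members were not compared in classes with fewer than 50 cells in a library, and 619 cells of hypoxia day 10 were too shallow to be thinned. Replicates are missing, so no alternative speaks to the spread between cultures.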

Other observations

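The genes outside the list that followed the summed seed genes most closely across the 3093 thinned cells of normoxia day 8 were Prc1 (Pearson r 0.66), Arl6ip1 (0.58), H2afx (0.56), Aspm (0.51) and Tubb4b (0.48). Prc1 bundles microtubules of the central spindle, H2afx encodes the histone variant H2AX, and Aspm a spindle-pole protein. Among held-out members r ran from 0.17 for Psrc1 to 0.71 for Hmgb2, with Ube2c at 0.68 and both Cks2 and Mki67 at 0.63. Over the 6530 other genes the median r was 0.0039. These are correlations over cells of 1 library that share depth by thinning, and they are given as a description.

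At day 10 the members with longer transcripts tended to have lower ratios. The Spearman coefficient between the longest annotated transcript and the day 10 ratio was -0.35 over the 50 members, which share the same libraries, and 0.013 over 10594 genes. At day 8 it was 0.12 over the members. In normoxia with age it was 0.47 over the members and 0.18 over all genes. Among members named above, the longest transcript is 10061 bases for Mki67 and 11130 for Cenpf, and 692 for Cks2 and 849 for Cks1b. Other named members broke this order. Ccnb2 has 1531 bases and a day 10 ratio of -1.73, Kif2c 2842 and -2.15, and Ckap5 6665 and -0.73. Genes are not independent replicates, and what moves with length here was not tested.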
